A study of Mus musculus with 18 samples.

Results

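Malat1 and Neat1 are long noncoding RNAs that stay in the nucleus. They were taken by symbol as 2 of the 55291 gene symbols listed in a count table of mouse pancreas and a count table of mouse liver, and are described here across all libraries. Malat1 collects in nuclear speckles, the nuclear domains rich in splicing factors. Its primary transcript is cut by RNase P just after an A-rich tract, so that mature Malat1 ends in a triple helix and carries no poly(A) tail, and the tRNA-like piece downstream is trimmed by RNase Z. Neat1 is the scaffold of paraspeckles, bodies that assemble beside the speckles. Its short isoform is polyadenylated, while the long isoform, which builds the body, ends in a Malat1-like triple helix. Malat1 is among the abundant transcripts of most mouse tissues. Both genes were picked because their levels differed among these libraries, so the differences between genotypes are given below as values with their errors and carry no p.

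The mice carried a knock-out of Otub2, a deubiquitinase gene. HOM animals were OTUB2 -/-, HET animals OTUB2 +/- and WT animals OTUB2 +/+. Pancreas gave 3 HOM libraries (all male), 5 HET libraries (HET 9 and HET 11 female, HET 10, HET 15 and HET 16 male) and 3 WT libraries (WT 16 female, WT 11 and WT 12 male). Liver gave 5 HET and 2 WT libraries of unstated sex, and no HOM liver was analysed here. Neither age nor strain is given, nor whether each library came from its own animal, so errors measure the spread between libraries, which may be partly technical. MARS-seq, the method used, primes on poly(A) and counts the 3′ ends of transcripts. In bulk tissue, fewer cells of a type and less RNA per cell cannot be told apart.

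Otub2 itself had 1 count in HOM 10 and 0 in HOM 19 and HOM 21, 1 count in HET 16 and 0 in the other HET pancreata, and 3, 4 and 3 counts in WT 11, WT 12 and WT 16. In liver it had 1, 0, 1, 1 and 2 counts in HET 1 to HET 5 and 1 and 0 in WT 1 and WT 2, too few to check the labels, and whether the counted 3′ end lies in the deleted part is not given. Pancreas libraries held 49502 to 1326541 counts and liver libraries 155201 to 1686234. HET 11 and HET 16 stood apart from the other 9 pancreata. Stomach mucosa markers summed to 226019 and 191612 CPM there (CPM being counts per 1000000 counts of the library), against 18.4 to 25393 CPM in the other 9, and cytosolic ribosomal protein genes took 4.25% and 4.74% of their counts and no more than 0.702% elsewhere. The pancreas label was checked against 11 acinar enzyme genes: Prss2, Amy2a5, Ctrb1, Cel and Cela3b had 0 counts in all 11 pancreata, the list summed to 15.8 to 164939 CPM, and Clps and Pla2g1b held nearly all of its counts. Hepatocyte markers summed to 83357 to 113163 CPM in the livers with all 8 members present, and the 7 islet markers were at 0 there. The main results for pancreas are given with and without HET 11 and HET 16.

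Malat1 (ENSMUSG00000092341.3) lies on the minus strand of mouse chromosome 19 at chr19:5795690-5802672 (GRCm38, the same assembly as mm10), where GENCODE release M21 annotates it as a lincRNA spanning 6983 bases. Neat1 (ENSMUSG00000092274.3), also a lincRNA on the minus strand, lies at chr19:5824708-5845478 and spans 20771 bases, with 22035 bases between the genes. Each has 4 annotated transcripts, of which Malat1-201 and Neat1-201 are single exons covering the whole gene, while Neat1-202 is a short form of 3004 bases with 2 exons. Because counts arise where a poly(T) primer can pair, the 3′ ends and the A-rich tract are printed below, 5′ to 3′ in the direction of transcription, from the GENCODE transcripts. In the first, the capitals mark the only run of 8 or more A in any annotated transcript of either gene, 12 A in a row that ends 298 bases before the annotated end of Malat1-201, followed by the tRNA-like stretch. In the 2 sequences after it the capitals mark the last AATAAA polyadenylation signal, 16 bases from the end of Malat1-201 and 14 bases from the end of Neat1-202. In the last sequence they mark the A-rich end of the long isoform Neat1-201. The most A-rich stretch of 30 bases, with 24 A, lies inside Neat1-201, ends 9392 bases before its 3′ end and is not printed. The richest such stretch of Malat1-201 has 20 A.
Malat1 A-rich tract, chr19:5795928-5796059: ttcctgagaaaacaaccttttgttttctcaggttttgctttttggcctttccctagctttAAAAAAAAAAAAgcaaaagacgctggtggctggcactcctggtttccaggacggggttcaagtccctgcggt
Malat1-201 last bases, chr19:5795690-5795769: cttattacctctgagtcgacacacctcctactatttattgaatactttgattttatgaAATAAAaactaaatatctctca
Neat1-202 last bases, chr19:5842307-5842386: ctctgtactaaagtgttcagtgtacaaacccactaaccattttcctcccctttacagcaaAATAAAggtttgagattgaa
Neat1-201 last bases, chr19:5824708-5824787: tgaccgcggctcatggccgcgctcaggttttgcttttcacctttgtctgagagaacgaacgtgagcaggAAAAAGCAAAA
The tables give 1 count per gene and library, so counts at the A-rich tract, at the annotated ends and elsewhere in the gene cannot be told apart, nor can the 2 Neat1 isoforms.

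In pancreas, Malat1 was abundant in HET 11 and HET 16 and sparse in all other libraries. The HOM pancreata had 14.6 CPM (HOM 10), 39.5 CPM (HOM 19) and 7.77 CPM (HOM 21), which rest on 3, 2 and 1 counts. Of the HET pancreata, HET 11 had 599 CPM and HET 16 had 898 CPM, from 795 and 602 counts, while HET 9, HET 10 and HET 15 had 80.8, 38.4 and 6.15 CPM, from 4, 3 and 1 counts. The WT pancreata had 61.6 CPM (WT 11), 173 CPM (WT 12) and 0 (WT 16), from 5, 11 and 0 counts. The ranges of the 3 genotypes overlap, and the HOM range lies within the WT range. At these depths 1 library's value is loose: the exact Poisson interval at 95% confidence was 86.5 to 310 CPM for WT 12, and the 0 counts of WT 16 allow up to 15.9 CPM (3 counts). Such intervals cover counting error only.

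Neat1 was detected in 5 of the 11 pancreata, none of them WT. HOM 10 had 97.5 CPM (20 counts), HOM 19 had 19.7 CPM (1 count) and HOM 21 had 0. HET 9, HET 11 and HET 16 had 141, 155 and 151 CPM, from 7, 206 and 101 counts, and HET 10 and HET 15 had 0. All 3 WT pancreata had 0 counts, which over their 333179 summed counts allows up to 9.00 CPM. That limit covers counting error only. Taken singly, WT 11, WT 12 and WT 16 allow up to 36.9, 47.3 and 15.9 CPM. The HET 9 value stood as high as those of HET 11 and HET 16, although its Malat1 level was far lower.

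In liver both RNAs were counted in every library, and both WT livers were above all 5 HET livers for both genes. Malat1 had 231, 161, 140, 147 and 250 CPM in HET 1 to HET 5, from 124, 116, 64, 39 and 421 counts, and 367 CPM in WT 1 and 1635 CPM in WT 2, from 57 and 560 counts. WT 2 stood far above WT 1, whose interval of 278 to 476 CPM began just above the 250 CPM of HET 5. Neat1 had 125, 15.2, 39.5, 56.7 and 81.8 CPM in HET 1 to HET 5, from 67, 11, 18, 15 and 138 counts, and 180 CPM in WT 1 and 251 CPM in WT 2, from 28 and 86 counts. Among the HET livers the order differed between the genes, HET 5 being highest for Malat1 and HET 1 for Neat1.

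**Figure D1:**
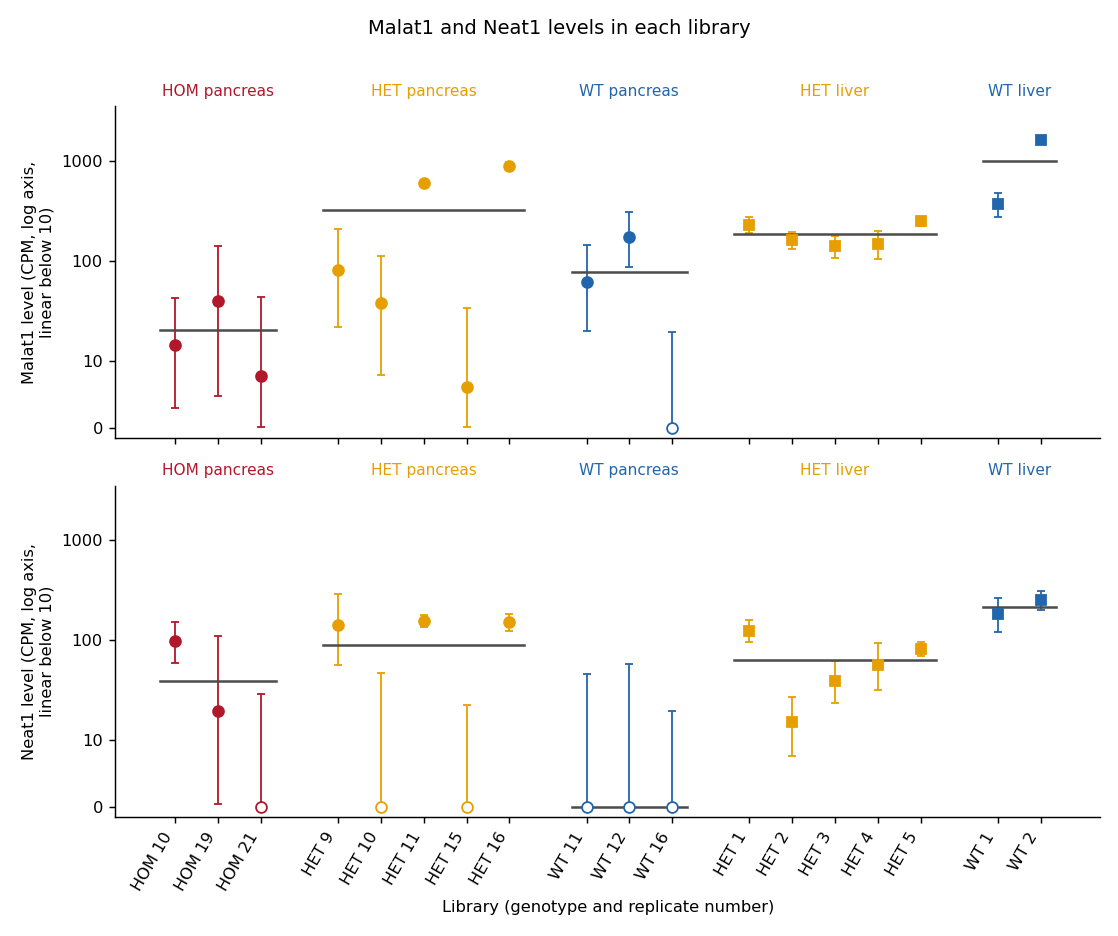
Malat1 (upper panel) and Neat1 (lower panel) in CPM for each library, with exact Poisson intervals at 95% confidence as bars, group means as horizontal lines and open symbols for 0 counts. Circles are pancreata and squares are livers. HET 11, HET 16 and WT 2 liver lead for Malat1, and the 3 WT pancreata are at 0 for Neat1.

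Ordered by group mean, Malat1 stood at 1001 ± 896 CPM in WT liver (SD, n = 2), 324 ± 402 CPM in HET pancreas (SD, n = 5), 186 ± 50.7 CPM in HET liver (SD, n = 5), 78.3 ± 87.8 CPM in WT pancreas (SD, n = 3) and 20.6 ± 16.7 CPM in HOM pancreas (SD, n = 3). The ranges of each pair of neighbours in that order overlap. Neat1 stood at 216 ± 49.9 CPM in WT liver, 89.5 ± 81.8 CPM in HET pancreas, 63.6 ± 41.9 CPM in HET liver, 39.1 ± 51.6 CPM in HOM pancreas and 0 in WT pancreas (SD, same n). Here the WT livers lay above every other group, and the remaining neighbours overlap. The tissues were deposited as separate tables, so levels across them are set side by side without a test. Per kilobase of gene span, Malat1 exceeded Neat1 in every library except HOM 10 (2.09 against 4.69 CPM per kb) and WT 16 pancreas, where both were 0. In a 3′ method counts need not grow with length, so this ratio describes the tables and not the number of molecules.

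Chemosensory receptor genes, whose symbols start with Olfr, Vmn1r or Vmn2r and a number, serve as a measure of counts outside the usual transcripts of these tissues, because their expression belongs to the sensory epithelia of the nose. The 1763 symbols of this kind took 0.438% of counts in HOM 10, 0.616% in HOM 19 and 0.555% in HOM 21. HET 9, HET 10 and HET 15 had 0.422%, 0.233% and 0.520%, while HET 11 had 0.0147% and HET 16 had 0.0252%. The WT pancreata had 0.695% (WT 11), 0.353% (WT 12) and 0.599% (WT 16). The share therefore split the HET pancreata, and the HOM and WT ranges overlap. All livers were low, with 0.00651%, 0.00360%, 0.00395%, 0.00378% and 0.000652% in HET 1 to HET 5 and 0.00966% and 0.0111% in WT 1 and WT 2. Both WT livers were thus above all 5 HET livers in receptor share as well, on 10 to 35 receptor counts in HET and 15 and 38 in WT. Wilson intervals at 95% confidence reached 0.00906%, 0.00528%, 0.00624%, 0.00696% and 0.00117% in HET 1 to HET 5 and began at 0.00586% in WT 1 and 0.00808% in WT 2. The interval of HET 1 thus overlaps those of both WT livers, those of HET 3 and HET 4 overlap that of WT 1 alone, and those of HET 2 and HET 5 lie below both.

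Across the 18 libraries the receptor share and the levels of Malat1 and Neat1 can be read side by side. The 9 libraries with more than 0.1% receptor counts, all pancreata, had 0 to 173 CPM of Malat1 (median 38.4) and 0 to 141 CPM of Neat1 (median 0, with 6 at 0). Their summed counts of 1007893 held 30 counts of Malat1 and 28 of Neat1. The 9 libraries with less receptor signal, the 7 livers with HET 11 and HET 16, had 140 to 1635 CPM of Malat1 (median 250) and 15.2 to 251 CPM of Neat1 (median 125), from 2778 and 670 counts in 6160687. Libraries with more receptor counts thus had less Malat1 when all are taken, whereas within liver the WT libraries had more of both. Within liver HET 5 had the lowest receptor share, yet its Malat1 level was the highest of the HET livers. The split by receptor share follows the outcome and the tissue closely, so it is given as a description with no correlation.

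**Figure D2:**
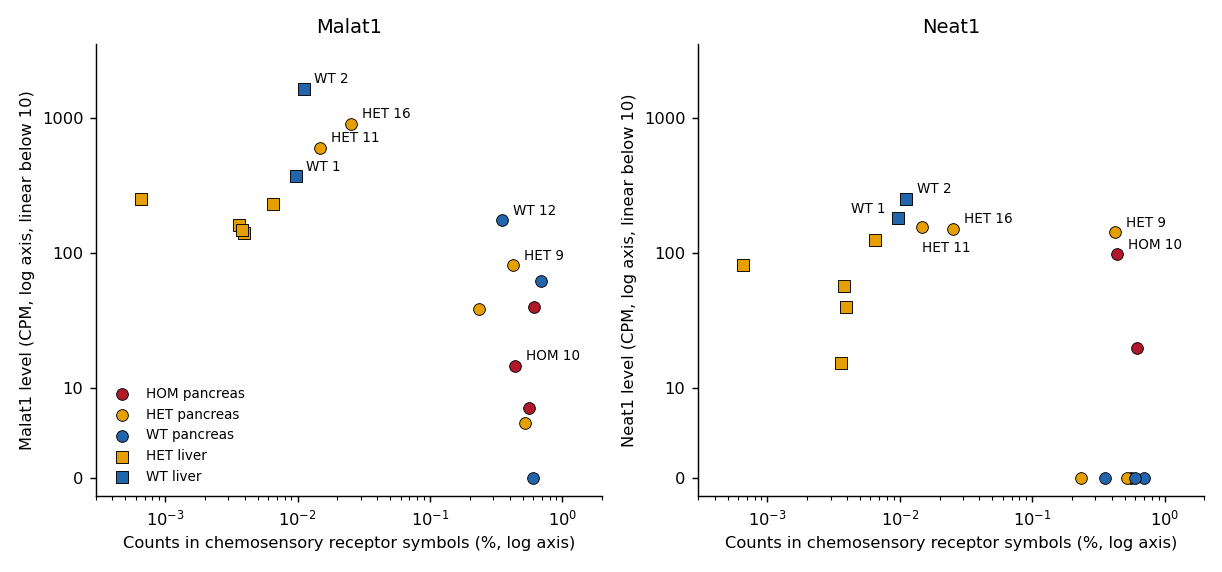
Malat1 (left) and Neat1 (right) in CPM against the percent of counts in chemosensory receptor symbols on a log axis, 1 point per library, circles for pancreata and squares for livers. The 9 receptor-rich pancreata lie at the right, at 0.233% or more. WT 1 and WT 2 are livers where labelled on the left of each panel.

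A flat background of reads over the genome would give each gene counts in proportion to its span. Summed over the 1727 annotated receptor genes, the 9 receptor-rich pancreata had 0.163 to 0.520 CPM per kb. At that density Malat1 would hold 0.0889 to 0.591 counts in a library and Neat1 0.264 to 1.76, where 0 to 11 and 0 to 20 were counted. The counted values lay above this level for Malat1 in each of the 9 except WT 16, on 1 count in HOM 21 and in HET 15. For Neat1 they did so in HOM 10, HOM 19 and HET 9, on 1 count in HOM 19. The Malat1 level was below 1 count in every library, so any count lies above it. The comparison therefore cannot tell 1 count from such a background. In HET 11 and HET 16 Malat1 had 85.8 and 129 CPM per kb and Neat1 7.48 and 7.25, against 0.0109 and 0.0189 for the receptors. In the livers the spans were 20.1 to 234 CPM per kb for Malat1, 0.734 to 12.1 for Neat1 and 0.000488 to 0.00830 for the receptors. The receptor counts themselves were uneven, since the 5 leading symbols held 30.1% to 52.2% of them in the 9 receptor-rich pancreata. Whether nuclear RNA or genomic reads set any of these levels was not tested.

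**Figure D3:**
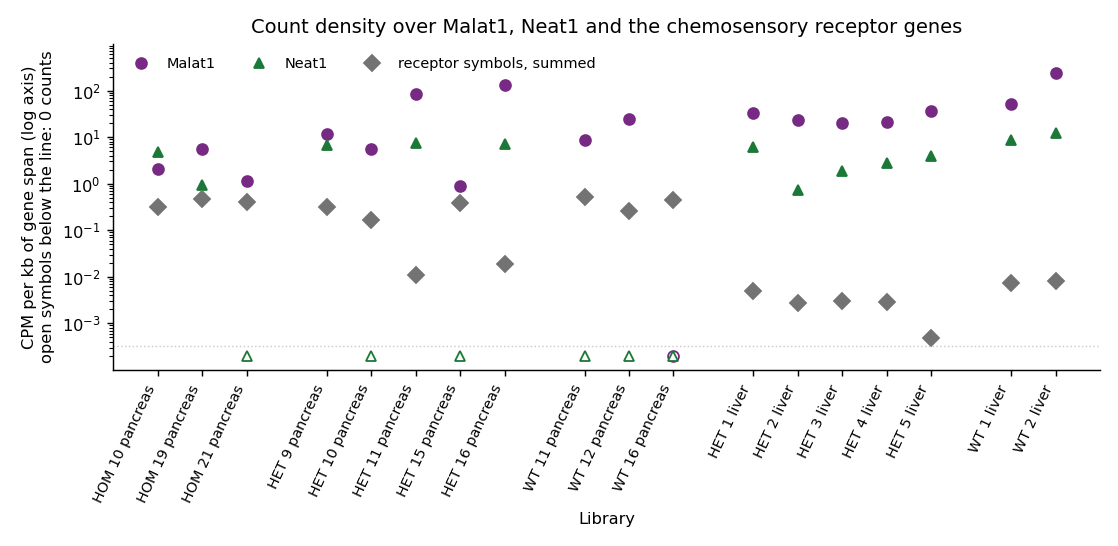
CPM per kilobase of gene span for Malat1, Neat1 and the summed receptor genes in each library, on a log axis. Open symbols below the dotted line mark 0 counts. Receptor density is highest in the 9 receptor-rich pancreata, at 0.163 to 0.520, and the ranges of Malat1 and of Neat1 in them overlap those of the livers.

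HOM pancreata (OTUB2 -/-) were set against WT pancreata. Both genes passed the filter on low counts in each tissue, and neither passed it in pancreas without HET 11 and HET 16. Malat1 averaged 20.6 CPM in HOM and 78.3 CPM in WT, and its fitted log2 fold change was −1.87 ± 2.24 (SE, edgeR), smaller than its error. WT 12 carried 11 of the 16 WT counts, and without it the log2 fold change was −0.72. Neat1 averaged 39.1 CPM in HOM, 4.34-fold the limit that the 0 counts of WT allow over the group. The limit leaves out the spread between libraries, so this fold does not bound the difference between genotypes. The HOM mean rests on HOM 10, without which HOM averaged 9.87 CPM, close to the WT limit of 9.00 CPM. Refitted without HET 11 and HET 16 and with no filter, the log2 fold change of Malat1 was −1.84 ± 3.11. With edgeR 0 of 3719 genes passed an adjusted p of 0.05 (0.0%), 185 genes had an unadjusted p under 0.05, and DESeq2 called 5 (0.134%), neither Malat1 nor Neat1 among them.

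In HET against WT pancreata, Malat1 averaged 324 CPM in HET and 78.3 CPM in WT, with a log2 fold change of 5.01 ± 2.52 (SE, edgeR). Without HET 11 and HET 16 the HET mean was 41.8 ± 37.4 CPM (SD, n = 3), below that of WT, and the log2 fold change, refitted with no filter because neither gene then passed it, was −0.66 ± 4.28. The higher HET level of Malat1 thus came from these 2 libraries, and the sign turned without them. Neat1 averaged 89.5 CPM in HET and 0 in WT, 9.94-fold the WT limit. Without HET 11 and HET 16 it averaged 47.1 CPM, 5.23-fold the limit, all of it from HET 9. These folds do not bound the difference between genotypes either. Scaling also moved the levels and fold changes. TMM factors were 0.175 and 0.268 for HET 11 and HET 16 and 1.29 to 1.61 for the other pancreata, and on that scale Malat1 stood at 4362 and 4366 CPM in HET 11 and HET 16, against 0 to 140 CPM in the others. With scaling by total counts the log2 fold change of Malat1 was 2.55, while the median over all genes shifted by −0.57. With edgeR 0 of 3719 genes were called (0.0%, 517 at an unadjusted p under 0.05), and DESeq2 called 183 (4.92%), neither gene among them.

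HOM pancreata were also compared with HET pancreata. Malat1 was lower in HOM by a log2 fold change of −6.89 ± 2.76 (SE, edgeR), and by −1.18 ± 3.99 without HET 11 and HET 16 and with no filter. Neat1 had a log2 fold change of −2.73 ± 2.29, which turned to 4.26 without HET 16 and to 4.06 without HET 11 and HET 16 and with no filter, and stood at −0.47 with scaling by total counts. Its direction in this comparison was thus set by single libraries. DESeq2 called Malat1 among 53 of 3719 genes (1.43%) and edgeR called 0 (0.0%, 410 at an unadjusted p under 0.05). The genes were chosen on these contrasts, so nothing is read from either call. The HET group is shared with the comparison above.

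Beside these levels, other contents of the pancreata moved as well. The 5 libraries with Neat1 counts had acinar enzyme sums of 4076 (HOM 10), 15712 (HOM 19), 15737 (HET 9), 164939 (HET 11) and 62802 CPM (HET 16), while the 6 without had 15.8 to 3775 CPM. Their stomach mucosa sums were 5022 to 226019 CPM, against 18.4 to 6602 CPM in the 6 without. Of the 8 stomach markers in the table, all 8 had counts in the 5 libraries and in HOM 21. Predicted gene symbols (Gm numbers and Rik names) held 2.05% of counts in HET 11 and 4.09% in HET 16, where the other 9 pancreata had 23.9% to 37.3%. The part of these contents in the Malat1 and Neat1 levels was not tested.

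Sex was not used in choosing the genes and could be tested in pancreas. Malat1 had 80.8, 599 and 0 CPM in the female pancreata (HET 9, HET 11 and WT 16) and 6.15 to 898 CPM in the 8 males, with a median of 38.9 CPM. Neat1 had 141, 155 and 0 CPM in the females and 0 to 151 CPM in the males, with a median of 0. The sexes overlap for both. The log2 fold change of females over males was −0.49 ± 2.15 for Malat1 (SE, edgeR's quasi-likelihood test, adjusted p = 1) and 1.20 ± 2.05 for Neat1 (adjusted p = 1), in a fit in which 0 of 3719 genes were called (0.0%, 147 at an unadjusted p under 0.05; DESeq2 called 1, 0.0269%). Neither difference exceeded its error in this fit, and intervals of 2 SE ran from −4.78 to 3.81 and from −2.91 to 5.31, so differences of many fold in either direction were not detectable. The value for Neat1 turned on single libraries, at −1.21 without HET 11, 8.78 ± 3.23 without HET 16 (not called) and 4.80 ± 3.33 without both and with no filter. That for Malat1 was 0.68 without WT 16 and −0.29 ± 4.66 without HET 11 and HET 16 and with no filter.

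In liver, HET animals were compared with WT animals. Malat1 averaged 186 ± 50.7 CPM in HET (SD, n = 5) and 1001 ± 896 CPM in WT (SD, n = 2), a level 5.39-fold higher in WT. The edgeR log2 fold change was −2.33 ± 0.39 (SE), and 15 of the 4803 genes tested had a lower one, beside a median of 0.03 over all genes. Its size rests on WT 2: without WT 2 the log2 fold change was −0.91 ± 0.42, and without WT 1 it was −2.96. Neat1 averaged 63.6 ± 41.9 CPM in HET and 216 ± 49.9 CPM in WT, 3.39-fold higher in WT, with a log2 fold change of −1.69 ± 0.51 and 54 genes lower. It ran from −2.07 to −1.44 when single livers were left out. Every HET liver lay below every WT liver for 2 of 2 genes, as for 532 of all 4803 genes (11.1%), and nothing is read from this count, since the genes were chosen on it. With edgeR 0 of 4803 genes were called (0.0%, 497 at an unadjusted p under 0.05), and DESeq2 called 16 (0.333%), Malat1 among them and Neat1 not. With no filter edgeR called 57 of 18552 genes (0.307%), both Malat1 and Neat1 among them. It also called Malat1 with a filter of a mean of at least 10 CPM. Nothing is read from these calls of Malat1 and Neat1 or from their ranks by log2 fold change, since the genes were chosen on this contrast.

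Several library measures separated the livers in the same way. Mitochondrial DNA transcripts took 0.109% to 0.243% of counts in HET livers and 0.288% and 0.248% in WT livers. Cytosolic ribosomal protein genes took 3.84% to 5.08% in HET and 3.40% and 3.55% in WT. Hepatocyte markers, with 8 of 8 members present in each liver, summed to 83357 to 96598 CPM in HET and 113163 and 97029 CPM in WT. The groups do not overlap in any of these. The receptor share given above was also higher in both WT livers. Taken singly, 532 of the 4803 genes tested (11.1%) had every HET liver below every WT liver. HET livers held 264660 to 1686234 counts, WT 1 held 155201, the fewest, and WT 2 held 342609. The 8 immune markers, of which Cd79a was at 0 in all livers, summed to 83.3 to 191 CPM in HET and 155 and 228 CPM in WT. The 4 endothelial markers summed to 13.2 to 65.2 CPM in HET and 12.9 and 52.5 CPM in WT, and the 5 fibroblast and stellate cell markers to 15.1 to 47.1 CPM in HET and 64.4 and 46.7 CPM in WT. These 3 sums overlap between the genotypes. The part of these measures in the Malat1 and Neat1 difference was not tested, and with 2 WT livers library and genotype cannot be told apart.

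**Figure D4:**
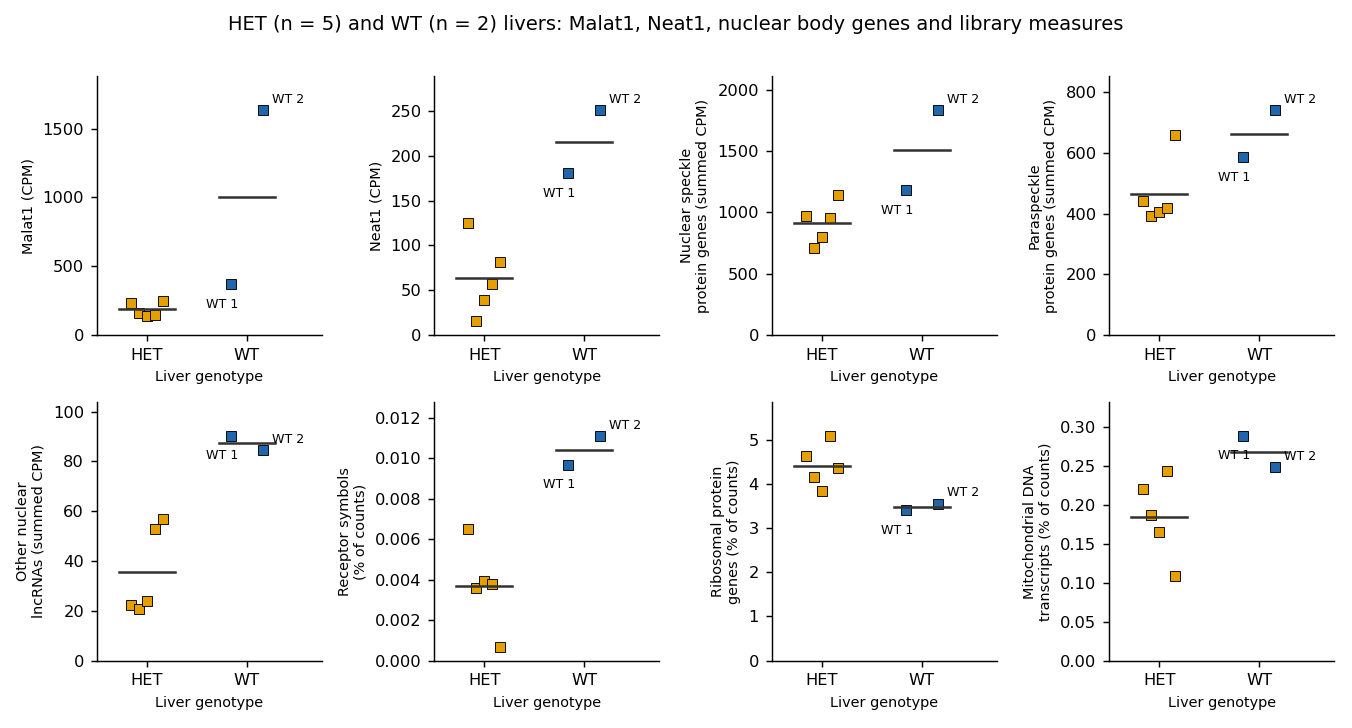
Shown are 8 measures in HET (left of each panel, n = 5) and WT livers (right, n = 2), 1 square per library with group means as lines and all axes from 0. Malat1, Neat1, the speckle protein and other nuclear lncRNA sums, the receptor share and mitochondrial transcripts are higher in both WT livers, ribosomal protein genes are lower, and the paraspeckle protein sums overlap.

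Nuclear body genes around Malat1 and Neat1 were described from lists grouped by role, with no member called by edgeR under the settings used throughout. Luc7l3, given with the pancreas values, was called under other settings. Of 27 nuclear speckle protein genes, among them the SR splicing factors and the speckle scaffolds Son and Srrm2, 17 were tested in liver. Of these, 13 were lower and 4 higher in HET, with a median log2 fold change of −0.57 beside 0.03 over all genes, and 5 had an unadjusted p under 0.05, all lower, as for 4.96% of all genes tested. With no filter 19 of all 27 were lower, with a median of −0.38 beside 0.43. The smallest p belonged to Srsf11, a splicing factor (log2 fold change −1.27 ± 0.45, SE, edgeR's quasi-likelihood test, adjusted p = 0.355), with 70.7, 25.0, 74.5, 30.2 and 68.2 CPM in HET 1 to HET 5 and 83.8 and 190 CPM in WT 1 and WT 2. Ddx39b, an RNA helicase of splicing and export, had −1.07 ± 0.40 (adjusted p = 0.392), and Srrm2 had −0.95 ± 0.36 (adjusted p = 0.392). Acin1, a component of the exon junction complex, had −1.09 ± 0.46 (adjusted p = 0.423). The summed level of the list was 712 to 1143 CPM in HET and 1179 and 1833 CPM in WT, so the groups do not overlap. Among single genes, 11.1% of all tested likewise had every HET liver below every WT liver. Son, Srsf1 and Srsf3 did not pass the filter, with 35, 40 and 47 counts in all 5 HET livers and 5, 5 and 8 in both WT livers, and Srsf2 went the other way with 1.39 ± 0.87 (adjusted p = 0.604).

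Of 23 paraspeckle protein genes 6 were tested in liver, all lower in HET, with a median log2 fold change of −0.56. With no filter on low counts, 13 of the 23 were higher and 10 lower, with a median of 0.24 beside 0.43 over all genes, so the direction of the list turned. Smarca4, a chromatin remodelling ATPase required for paraspeckle assembly, came first with −1.21 ± 0.44 (SE, edgeR's quasi-likelihood test, adjusted p = 0.364). It had 50.3, 19.4, 52.6, 64.2 and 61.7 CPM in HET 1 to HET 5 and 155 and 90.5 CPM in WT 1 and WT 2. These do not overlap, as for 11.1% of all genes tested. Hnrnpk, an RNA-binding protein, had −0.29 ± 0.77 (adjusted p = 0.930). The core proteins that bind Neat1 were too sparse to test. Sfpq averaged 14.7 ± 12.1 CPM in HET (SD, n = 5) and 18.4 ± 1.28 CPM in WT (SD, n = 2), Nono 14.8 ± 8.81 CPM in HET and 15.2 ± 3.27 CPM in WT, and Pspc1 had 2 counts in HET and 1 in WT.

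Other nuclear noncoding RNAs were mostly near 0. Of 17 listed, 2 were tested in liver: Firre, which organises chromosome contacts, with −1.21 ± 0.75 (SE, edgeR's quasi-likelihood test, adjusted p = 0.604), and Dleu2, the host of a miRNA cluster, with −0.74 ± 0.75 (adjusted p = 0.769). Their list summed to 20.8 to 56.9 CPM in HET and 90.2 and 84.6 CPM in WT. Kcnq1ot1, Tug1 and Xist had 0 counts in all 7 livers, and Meg3 had 36 counts in HET and 7 in WT. Of the 13 genes that cut or stabilise the Malat1 3′ end, 3 were tested in liver. Pop5, a subunit of RNase P, had 0.89 ± 0.43 (adjusted p = 0.486) and Elac2, the RNase Z that trims the tRNA-like piece, −0.21 ± 0.75 (adjusted p = 0.95). Rpph1, the RNA of RNase P, had 13 counts in HET and 1 in WT, and Mettl16, which binds the triple helix, had 7 and 1. The median of the 3 tested genes was 0.49, opposite in sign to the 3 other lists. With no filter it was 0.36 over 12 genes, beside 0.43 over all genes. The paraspeckle median was then 0.24, so the signs of these 2 lists no longer differed.

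In pancreas few of these genes could be tested, 3 paraspeckle, 8 speckle, 5 other noncoding and 1 processing gene of 3719. In HET against WT the speckle genes had a median log2 fold change of 3.53, beside −0.20 over all genes, with 3 of 8 at an unadjusted p under 0.05, all higher, as for 9.2% of all genes tested. Without HET 11 and HET 16 the median was 2.09 over the 4 speckle genes then tested, beside −0.04. In HOM against WT their median was −0.92, beside 0.19, and it turned to 0.16 without HET 11 and HET 16 and to 0.44 with no filter (16 of 26 higher). In HOM against HET it was −3.52, beside 0.35, and −1.57 without HET 11 and HET 16. The paraspeckle medians were 1.16, 2.26 and 1.11 and those of the other noncoding RNAs 0.16, 0.92 and 0.10 in the same order. Without HET 11 and HET 16 they were 0.21, 2.07 and 1.85 for 2 paraspeckle genes and 2.29, 2.60 and −0.44 for 4 other noncoding RNAs, so the last turned. With no filter the paraspeckle median in HOM against HET was −0.42 over 21 genes, beside −0.40 over all genes, and that of 14 other noncoding RNAs −0.48. With Smarca4, at 0 in WT, set at its bound, the paraspeckle median in HOM against WT was 1.76, and no other median of the tested genes moved. Luc7l3, a splicing factor related to a U1 particle protein of yeast, had 68.3, 691 and 117 CPM in HOM 10, HOM 19 and HOM 21, 2121, 3061, 296, 351 and 1032 CPM in HET 9, HET 10, HET 11, HET 15 and HET 16, and 0 in all 3 WT pancreata. It was counted in every HOM and HET library, HET 11 and HET 16 not being the highest. With edgeR its adjusted p was 0.0739 in HET against WT and 0.957 in HOM against WT, and without HET 11 and HET 16 these were 1.86e-05 and 0.00589. It was the only listed gene called in that setting, in which 0.346% of genes were called in HET against WT and 0.5% in HOM against WT. With 0 counts in WT, Luc7l3 passed the filter only through its HOM and HET counts. Nothing is therefore read from its calls against WT in any setting. DESeq2 called Luc7l3 (adjusted p = 4.06e-06) and Srsf11 (adjusted p = 0.0389) in HET against WT and Acin1 in HOM against HET (adjusted p = 0.0197).

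Acin1 resembled Malat1 in being high in HET 11 and HET 16. It had 998 and 1634 CPM in HET 11 and HET 16 and 0 to 343 CPM in the other 9 pancreata. Rbm25, a splicing factor of the speckles, had 674 and 1092 CPM in HET 11 and HET 16. Unlike Malat1, it was also high in HET 9 and HET 10, at 586 and 589 CPM, and had 0 to 101 CPM in the rest. Meg3, an imprinted nuclear RNA, had 176 and 7.46 CPM in HET 11 and HET 16 and 73.9 to 1103 CPM in the other 9, where every library held counts of it. Dleu2 had 42.2 and 148 CPM in HET 11 and HET 16 and 15.8 to 3329 CPM in the other 9. Nuclear noncoding RNAs thus did not vary as 1 group over the pancreata. Xist, the RNA of the inactive X chromosome, had 17 counts in the female HET 11 and 0 in the other 10 pancreata, the females HET 9 and WT 16 among them. Kcnq1ot1 and Pspc1 had 0 counts in all 11, Sfpq had 9 counts in HET and 19 in WT, and Nono had 4 in HET and 0 in WT and HOM.

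The genes whose levels ranked the libraries most like Malat1 and Neat1 were taken by Spearman correlation of CPM among named genes with a mean of at least 10 counts, as a description over libraries that differ in depth. Over the 7 livers Malat1 was matched by Dapk1, Ddx47 and Zrsr2 (rho = 1) and by Acad10 and Acy1 (rho = 0.964), and Neat1 by Mlxipl and Safb2 (rho = 1) and Aldh1b1, Arhgef1 and Cds2 (rho = 0.964). The ties are wide, with 15 and 17 of 4495 genes at or above the fifth place, and the genes' likeness to each other was 0.857, at rank 62 for Malat1 and 73 for Neat1. Over the 11 pancreata Malat1 was matched by Bcl2l1 and Micos13 (rho = 0.879), Cotl1 (0.866) and Phax (0.853), and Neat1 by Lgals2 (rho = 1), Cyc1, Fxyd3 and Uqcrc1 (0.989) and Acaa1a (0.978). The likeness of Malat1 to Neat1 there was 0.639. Over the other 9 pancreata the genes averaged 3.33 and 3.11 counts, too few for a ranking to be read.

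The genes beside them on chromosome 19 did not share the liver pattern throughout. Map3k11 averaged 41.3 CPM in HET livers and 36.8 CPM in WT livers, and Slc25a45 had 21.4 CPM in HET and 5.84 CPM in WT. Frmd8, on the far side of Neat1, had 0 counts in all groups. Gm37376, which lies inside the Malat1 span on the plus strand, had 5.07 CPM in HET livers and 5.84 CPM in WT livers. No source used here says whether the counting used strand, so reads of Malat1 and of this transcript may not be told apart.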

How the data were processed

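TRI reagent was used to extract the RNA, and libraries followed MARS-seq in a bulk format, per the labels' protocols. The submitters' processing notes name cutadapt, STAR and mouse build mm10. No source used here gives versions, the counting tool, its annotation and strand setting, or how molecular barcodes were treated. The values are whole-number counts per gene symbol, 1 deposited table per tissue, which the authors call corrected without saying for what. No library pair was identical.

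Malat1, Neat1 and the gene lists were chosen with earlier results of these data known. CPM is counts per 1000000 counts of a library. edgeR 4.0.16 in R 4.3.3 was run with filterByExpr, TMM, a robust quasi-likelihood fit and Benjamini-Hochberg adjustment at 0.05, with genotype and sex over 11 pancreata (3719 genes) and with genotype over 7 livers (4803 genes). The common dispersion was 2.75 in pancreas and 0.125 in liver, a biological coefficient of variation of 166% and 35.4%. Fits were checked on simulated data for HET against WT. Of the changed genes tested, the liver fit called all at 16-fold and 64-fold, 30 of 44 at 4-fold and 4 of 46 at 2-fold. It made 5 false calls. The pancreas fit called none of any size. Thus 0 calls in pancreas do not show that genes did not differ, and 0 calls in liver do not show that genes did not differ by about 2-fold.

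Named in full were Malat1 and Neat1. Of the lists, fixed genes and up to 4 further members with the smallest p per comparison could be named, and beside them the 5 genes most alike and neighbours within 100 kb. Of the genes these rules select, 3 are not reported here. Alternatives were DESeq2 1.42.0, its size factors in edgeR, total-count scaling, 2 other filters, no sex term, fewer groups, other denominators, a wider receptor list, the replicate number as a block, leaving out each library, and leaving out HET 11 and HET 16 (with no filter, added after the data were seen). Symbols of 53292 genes matched GENCODE M21, and transcripts, spans and sequences come from that release (GRCm38).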

Additional observations from a re-analysis of the deposited data

Results flagged for a closer look

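Within groups of 5, single libraries lay far from the rest in 4 of 37 checks, and chance alone flags about 1 in 20 such groups. Among the HET livers, predicted gene symbols took 1.22% of counts in HET 5 and 1.80% to 1.96% in the other HET livers. HET 5 also had the highest paraspeckle protein sum, 660 CPM, where the other HET livers had 392 to 443 CPM. It is the deepest liver, at 1686234 counts, and had the highest Malat1 level of the HET livers. Among the HET pancreata, mitochondrial DNA transcripts took 0.224% of counts in HET 15 and 0.0815% to 0.110% in the others, and islet markers summed to 756 CPM in HET 10 and 0 to 201 CPM in the others. HET 10 and HET 15 were the HET pancreata without Neat1 counts. No Malat1 or Neat1 level and no receptor share stood out by this measure. The part of these library differences in any result was not tested.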

How the results depend on the processing

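Of the values that answer a comparison, 96 under the alternatives stayed within the spread between replicates or, for counts of calls, within 1.5 times, and 28 others did not, including those below. The causes were not tested.

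With DESeq2 the calls were 5 in HOM versus WT, 183 in HET versus WT, 53 in HOM versus HET and 1 in females against males in pancreas, and 16 in liver, where edgeR made 0. Scaling by total counts gave 23 calls in HET versus WT and a Neat1 log2 fold change of −0.47 in HOM versus HET. Without the sex term there were 146 calls in HET versus WT. With no filter the livers had 57 calls, both genes among them, and with a mean of at least 10 CPM 6, Malat1 among them. Malat1 and Neat1 were chosen on the genotype contrasts, so nothing is read from their calls in any setting. Leaving out HET 11 and HET 16 gave 13, 9 and 7 calls in HOM versus WT, HET versus WT and HOM versus HET and 3 between the sexes. Neither gene passed the filter there. With no filter as well, calls were 6 in HOM versus WT and 1 in HET versus WT, Malat1 stood at −0.66 in HET versus WT and −1.18 in HOM versus HET, and Neat1 at 3.52 and 4.06. Neat1 had 0 counts in every WT pancreas. Its edgeR log2 fold changes against WT, here and below, thus depend on a small count added by the fit and give no size.

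Replicate numbers did not pair libraries: deviations of same-numbered libraries correlated at −0.048 to 0.079. With the replicate number as a block in place of sex, Malat1 stood at 6.96 in HOM versus WT, 8.09 in HET versus WT (called) and −1.13 in HOM versus HET, Neat1 at 16.4 in HOM versus WT and 6.62 in HOM versus HET, and calls were 18 in HOM versus WT and 149 in HET versus WT. The block gave 41 calls in liver. HOM and WT pancreata share no replicate number, so this HOM versus WT value was reached only through HET 10, HET 11 and HET 16. Most replicate numbers belong to a single library in either tissue. The block thus leaves little from which to estimate error, and nothing is read from its calls.

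When single libraries were left out, Malat1 ran from −2.54 to −0.72 in HOM versus WT, 4.07 to 6.34 in HET versus WT, −7.86 to −6.61 in HOM versus HET, −1.32 to 0.68 between the sexes (0.28 without HET 9, 0.68 without WT 16) and −2.96 to −0.91 in liver. It had no pancreas value without HET 11 or without HET 16, since it then failed the filter. Neat1 ran from 3.40 to 12.5 in HOM versus WT, 7.80 to 9.66 in HET versus WT, −5.35 to 4.26 in HOM versus HET, −1.21 to 8.78 between the sexes and −2.07 to −1.44 in liver. The pancreas values of Neat1 against WT give no size, since WT had 0 counts. Calls ran from 0 to 4 in HOM versus WT, 0 to 92 in HET versus WT, 0 to 2 between the sexes and 0 to 6 in liver, and stayed at 0 in HOM versus HET.

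On TMM library sizes the HET pancreas means were 1766 CPM for Malat1 and 396 CPM for Neat1. In the 9 receptor-rich pancreata, limits at 0 counts were 14.6 to 60.6 CPM per library. A library with 0 counts of Neat1 may thus still hold it at a level below its limit.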
